A study of Mus musculus with 6 samples.

Results

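The exons described here are the cassette exons of a length divisible by 3 that were listed as differently spliced between P19 cells with SFPQ knocked down and control P19 cells. P19 is an established mouse line of embryonal carcinoma origin with stem cell properties. The SFPQ knockdown group (3 samples) was transiently transfected with a pool of small interfering RNAs against Sfpq, an RNA-binding protein of nuclear paraspeckles, and the control group (3 samples) with a control small interfering RNA. RNA was sequenced as paired ends and the outcome was deposited as 3 lists of splicing events, one for each replicate number (lists 1 to 3). The lists give the position and type of an event with no read count, inclusion level, direction or error, so the depth behind an exon is unknown and it is not known whether the knockdown raised or lowered the use of an exon. Neither the knockdown of Sfpq nor the identity of the cells can be checked from positions. The sources do not say whether numbered samples were separate cultures, and what the lists share may therefore be technical.

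Of 643 distinct events in the 3 lists, 439 were cassette exons, that is, exons included or skipped whole. Those whose end minus start was divisible by 3 were kept, which gave 270 frame-keeping cassette exons in 245 genes, and the remaining 169 are called other cassette exons. List 1 held 126 of the frame-keeping exons, list 2 held 108 and list 3 held 102. Annotation came from GENCODE M21, which has the assembly of mm10, and 269 of the 270 coincided at both ends with an annotated exon. The exception was a 93-nt exon in the 5′UTR of Ptrh2, named after its values were seen.

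A ribosome reads mRNA in codons of 3 bases. When a coding exon with a length divisible by 3 is skipped, the codons behind it are read as before and the protein loses only the residues of that exon, whereas skipping of another length shifts the frame and commonly brings a premature stop codon. Very short exons, often called microexons, are best known from neurons, where most of them keep the frame and add a few residues to proteins of the synapse, the cytoskeleton and membrane traffic.

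Short exons were a large part of the frame-keeping exons. Among the 270, 57 (21.1%, 95% Wilson interval 16.7% to 26.4%) were 27 nt or shorter, against 1 of the 169 other cassette exons (0.592%, 0.105% to 3.28%). The 16 of them that stood in more than 1 list are shown with their reference sequence, since they are the shortest frame-keeping exons that the lists repeat. Letters in capitals are whole codons of the exon, and lower-case letters belong to codons completed in the exon before or after it. Sequences run 5′ to 3′ along the mRNA and were taken from the GENCODE M21 transcripts.
Iffo1, 9 nt, chr6:125151795-125151803, plus strand: AAGAAGCTG
Madd, 9 nt, chr2:91140809-91140817, minus strand: GAGCGGAAG
Mtss1, 12 nt, chr15:58964497-58964508, minus strand: tgGACGCTCAGg
Rapgef6, 15 nt, chr11:54651749-54651763, plus strand: ctGTTGGTTTTTACt
Sh3glb2, 15 nt, chr2:30346059-30346073, minus strand: cTCCCAGGGTGCCat
Src, 18 nt, chr2:157458843-157458860, plus strand: gAGGAAGGTGGATGTCag
Camta2, 21 nt, chr11:70670891-70670911, minus strand: CTGACCTGGATTGCACTTAAG
Exoc1, 21 nt, chr5:76540747-76540767, plus strand: aaCTGCCTAAAGTTACAGAAg
Tmem184b, 21 nt, chr15:79363658-79363678, minus strand: tgCTGACGTACGGCCCATACg
Vti1a, 21 nt, chr19:55387189-55387209, plus strand: TTGATAAAATTACGTGAAGAG
Nav1, 24 nt, chr1:135463915-135463938, minus strand: GCTGAGGAGAGGATGCAATCTGAG
Nrxn2, 24 nt, chr19:6463824-6463847, plus strand: CACGCAGGGATTGGACACGCTATG
Daam1, 27 nt, chr12:71958747-71958773, plus strand: GAGTTCTTTGTGAACAACTCCAAGCAG
Mark2, 27 nt, chr19:7279986-7280012, minus strand: aAATCTGTCTTTCAGGTTTGCCAGAag
Nrxn2, 27 nt, chr19:6488784-6488810, plus strand: acTGCCTGCGCGTCGGCTGCGCACCCa
Trappc9, 27 nt, chr15:73042177-73042203, minus strand: ggGCGCAAGAAGTTCTCATTGACCCAg

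Each of these 16 exons was coding at every base, and by that definition free of stop codons in its frame. Madd, an exchange factor for the vesicle GTPase Rab3, had an exon of 3 codons (exon 33 of 36, in lists 1 and 3), and so had Iffo1, an intermediate filament family gene (exon 5 of 10, lists 1 and 3). Mtss1, a protein that binds actin and bends membranes, had a 12-nt exon in lists 1 and 2. Rapgef6, an exchange factor for Rap GTPases, and Sh3glb2, a member of the endophilin family, had exons of 15 nt in lists 1 and 3. Src, the tyrosine kinase, had an 18-nt exon in lists 1 and 3 (exon 6 of 15). An insert of this kind in the SH3 domain is known from the neuronal form of the kinase.

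Of the exons of 21 nt in more than 1 list, that of Vti1a, a SNARE protein of Golgi and endosome vesicles, was in all 3 lists (exon 5 of 9). That of Exoc1, a subunit of the exocyst that tethers secretory vesicles, was in lists 1 and 2, and those of Camta2, a calmodulin-binding transcription activator, and the membrane protein gene Tmem184b were in lists 1 and 3. Nrxn2, a neurexin of the presynaptic membrane, had 2 such exons, one of 24 nt in lists 2 and 3 (exon 7 of 23) and one of 27 nt in lists 1 and 3 (exon 12 of 23), 24936 nt apart. Nav1, a microtubule-bound neuron navigator, had an exon of 24 nt in lists 2 and 3. Exons of 27 nt stood in all 3 lists in Daam1, a formin that builds actin filaments, and Mark2, a kinase of microtubule-associated proteins, and in lists 1 and 3 in Trappc9, a subunit of a tethering complex of the Golgi. Thus 3 of the 16 were in all lists, 9 in lists 1 and 3, 2 in lists 1 and 2, and 2 in lists 2 and 3.

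Frame-keeping exons of more than 27 nt in all 3 lists were 7. The 5 of them that were coding throughout are shown for the same reason as above, with whole codons in capitals.
6430548M08Rik, 30 nt, chr8:120157468-120157497, plus strand: aGGGGATGCTGGAGAGCAGGAGGAGAAGag
Elmo2, 36 nt, chr2:165303666-165303701, minus strand: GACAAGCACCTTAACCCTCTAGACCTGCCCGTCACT
Rufy3, 54 nt, chr5:88598436-88598489, plus strand: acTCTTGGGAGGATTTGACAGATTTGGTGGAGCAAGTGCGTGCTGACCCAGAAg
Fgfr1op, 60 nt, chr17:8175519-8175578, plus strand: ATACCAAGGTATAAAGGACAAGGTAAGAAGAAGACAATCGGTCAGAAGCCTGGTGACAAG
Rbm41, 72 nt, chrX:139991516-139991587, minus strand: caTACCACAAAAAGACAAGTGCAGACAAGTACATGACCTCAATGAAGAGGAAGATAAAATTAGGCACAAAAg

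Elmo2 is a partner of the Dock exchange factors for the GTPase Rac, Rufy3 an effector of small GTPases on vesicles, Fgfr1op a protein of the centrosome and Rbm41 an RNA-binding protein. The other 2 exons in all 3 lists held a start or a stop codon. The 288-nt exon 2 of Tmem11, a gene for an inner mitochondrial membrane protein, held the start codon with 14 coding bases (chr11:60875760-60876047, minus strand). The 129-nt exon 12 of 13 of Scarb1, the receptor for high-density lipoprotein, held 126 coding bases and ended with the stop codon (chr5:125281105-125281233, minus strand), so that skipping it exchanges the end of the protein although its length is divisible by 3.

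**Figure D1:**
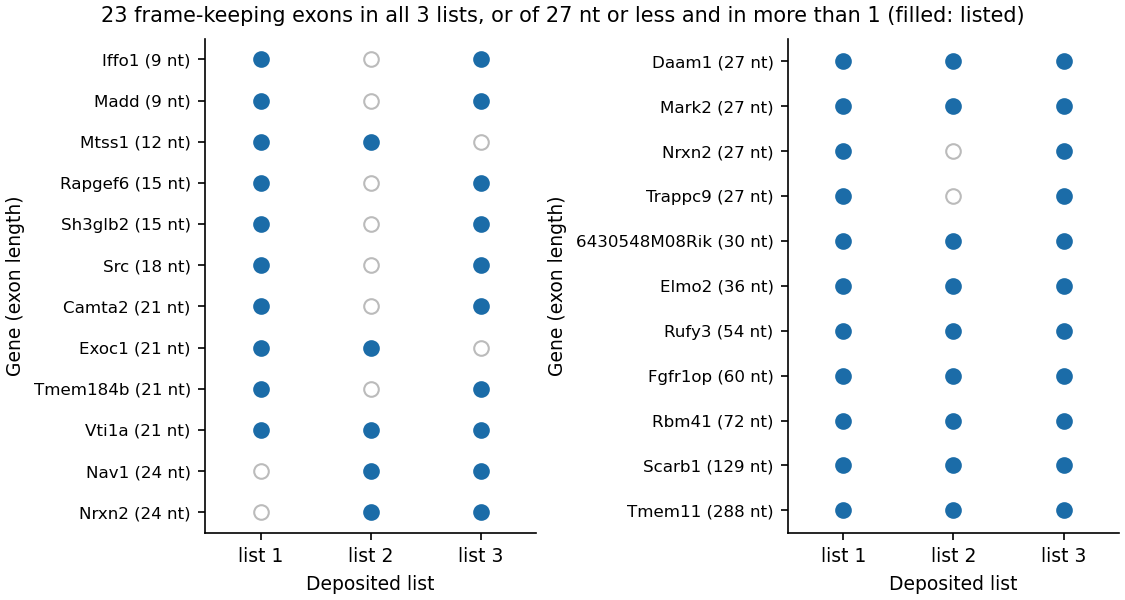
The 23 frame-keeping exons that were in all 3 lists, or were 27 nt or shorter and in more than 1 list, sorted by length. Each row is an exon (gene and length in nt) and each column a deposited list, with filled circles where the list held the exon. Of these exons 10 were in all 3 lists, among them Vti1a, Daam1 and Mark2 of 27 nt or less.

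The first comparison asked whether frame-keeping exons recurred from list to list more than other cassette exons. The 3 lists held 10 of the 270 in common (3.70%, against 3.42% of all 643 events), 46 were in exactly 2 lists and 214 in 1. In total 56 of 270 (20.7%, 16.3% to 26.0%) were in more than 1 list, against 33 of 169 other cassette exons (19.5%, 14.3% to 26.2%) and 19.6% of all 643 events. This difference was not detectable (odds ratio 1.08, 95% interval 0.651 to 1.81, two-sided Fisher's exact test, p = 0.808, also after Benjamini-Hochberg adjustment over the 4 tests run). Taken list by list, the share also found in another list was 33.3% of frame-keeping and 32.8% of other cassette exons in list 1, 36.1% and 37.1% in list 2, and 40.2% and 33.8% in list 3. Lists 1 and 2 shared 25 frame-keeping exons (19.8% of those in list 1 and 23.1% of those in list 2), lists 1 and 3 shared 27 (21.4% and 26.5%) and lists 2 and 3 shared 24 (22.2% and 23.5%).

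By size, 16 of the 57 exons of 27 nt or less recurred (28.1%), as did 13 of 50 of 28 to 51 nt (26.0%), 14 of 92 of 52 to 99 nt (15.2%), 11 of 58 of 100 to 199 nt (19%) and 2 of 13 longer ones (15.4%). These shares are given as a description, with no test of their order. Of the 56 recurrent exons 46 were fully coding and 55 were annotated as skipped, beside 214 (79.3%) and 242 (89.6%) of all 270 frame-keeping exons. The recurrent exon not annotated as skipped was the 135-nt exon 2 of Elob, the elongin B gene, in lists 2 and 3 (named after its values were seen).

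The second comparison set the lengths of the 2 kinds of exon side by side. Since the groups were themselves defined by length, and short exons are more often divisible by 3 in the annotation too, the values are a description with no test. Exons of 27 nt or less were 28 of 126 frame-keeping against 0 of 67 other cassette exons in list 1, 19 of 108 against 1 of 70 in list 2, and 29 of 102 against 1 of 71 in list 3. The single exon of the other kind had 16 nt, in Gatad2a, a subunit of the NuRD chromatin complex (lists 2 and 3, named after its values were seen). Median length was 63.0 nt for frame-keeping exons (quartiles 33.0 and 105 nt) and 97.0 nt for other cassette exons (67.0 and 127 nt). Exons of 18 nt and of 27 nt were the most frequent short classes, with 12 each, next to 11 of 24 nt, 7 of 15 nt and 6 of 21 nt.

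**Figure D2:**
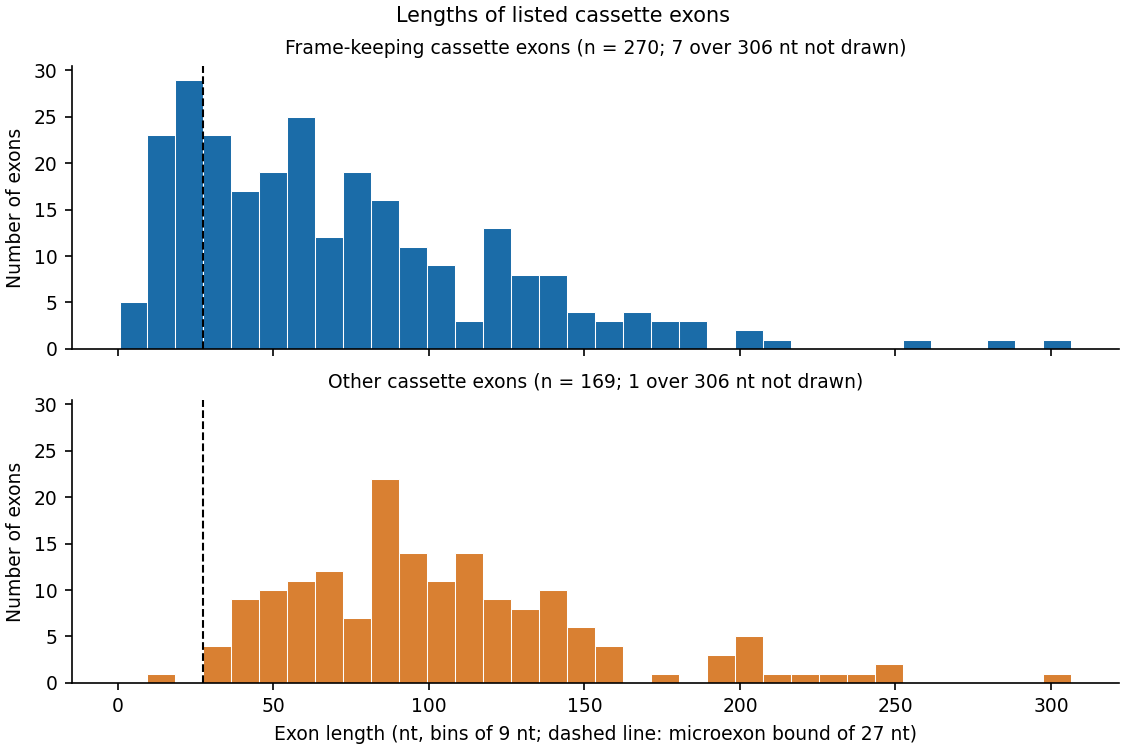
Lengths of listed cassette exons in nt, frame-keeping exons above and other cassette exons below, as the number of exons in bins of 9 nt. The dashed line marks 27 nt, to the left of which stand 57 frame-keeping exons and 1 other cassette exon.

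Short annotated exons keep the frame more often than long ones whether or not they were listed, so the annotation gives the level to read this against. Among internal coding exons annotated as skipped, 75.1% of those of 27 nt or less had a length divisible by 3 (637 of 848), and 61.1% of those of 28 to 51 nt, 50.2% of those of 52 to 99 nt and 43.3% of those of 100 to 199 nt. Of the listed cassette exons in these size classes, 98.3% (57 of 58), 73.5% (50 of 68), 56.4% (92 of 163) and 46.8% (58 of 124) were frame-keeping. Listed exons include those of UTRs, whereas the annotated exons are all coding. Restricted to fully coding exons, 53 of 53 listed exons of 27 nt or less kept the frame. At 28 to 51 nt the fully coding listed exons were 44 frame-keeping and 7 other. At 52 to 99 nt they were 67 and 28, and at 100 to 199 nt 40 and 21. In each of these classes the frame-keeping share of fully coding listed exons was above the annotated one, which was not tested.

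The shortest of all was a 6-nt exon of Iffo1 in list 3 (chr6:125151798-125151803, plus strand). It ends where the 9-nt Iffo1 exon of lists 1 and 3 ends, so both are forms of exon 5 with different acceptor sites. Other exons of 9 nt lay in Asap1, which switches off Arf GTPases (list 2, exon 12 of 31), and Emc1, a subunit of a membrane insertase of the endoplasmic reticulum (list 3, exon 14 of 24). At the other end stood a 600-nt exon of Ptprs, a receptor tyrosine phosphatase (list 2, exon 14 of 33), a 525-nt exon of the orphan nuclear receptor gene Nr2f6 (list 2), a 459-nt exon of Plekhh3 (list 1), a 411-nt exon of Dbp, a transcription factor of the circadian clock (list 3), and a 375-nt exon of Phactr4, a regulator of protein phosphatase and actin (list 1). Each of these 5 was fully coding and in a single list.

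The third comparison asked whether frame-keeping exons lay in the coding sequence, where a frame exists to be kept. Of the 270, 214 (79.3%, 74.0% to 83.7%) were fully coding in a protein-coding transcript, against 58 of 169 other cassette exons (34.3%, 27.6% to 41.8%). The odds ratio was 7.27 (95% interval 4.64 to 11.5, two-sided Fisher's exact test, adjusted p = 1.61e-20). Among frame-keeping exons this share varied with size, with 93.0% at 27 nt or less and 69.0% at 100 to 199 nt. At 52 to 99 nt it was 67 of 92 against 28 of 71 others, and at 100 to 199 nt 40 of 58 against 21 of 66. Coding shares of annotated exons of each kind were not counted, so whether the listed exons differ from the annotation here was not tested. By list the shares were 75.4% against 35.8% (Fisher's exact test, p = 1.64e-07), 79.6% against 30% (p = 4.35e-11) and 85.3% against 33.8% (p = 3.27e-12) for lists 1, 2 and 3. In the 5′UTR lay 26 frame-keeping exons (9.63%) and 53 other cassette exons (31.4%), and 11 (4.07%) and 32 (18.9%) touched neither coding sequence nor UTR of a protein-coding transcript. Recurrent frame-keeping exons of the 5′UTR were those of Aktip, of endosome transport, and of the spliceosome gene Luc7l2 in lists 1 and 2 (81 and 84 nt), Rab7, the GTPase of late endosomes, in lists 1 and 2 (135 nt) and Zfp934, a zinc finger gene, in lists 1 and 3 (204 nt). A 27-nt exon of Myef2 in list 3 was the only frame-keeping exon placed in a 3′UTR alone. Aktip and Zfp934 were named after their values were seen.

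**Figure D3:**
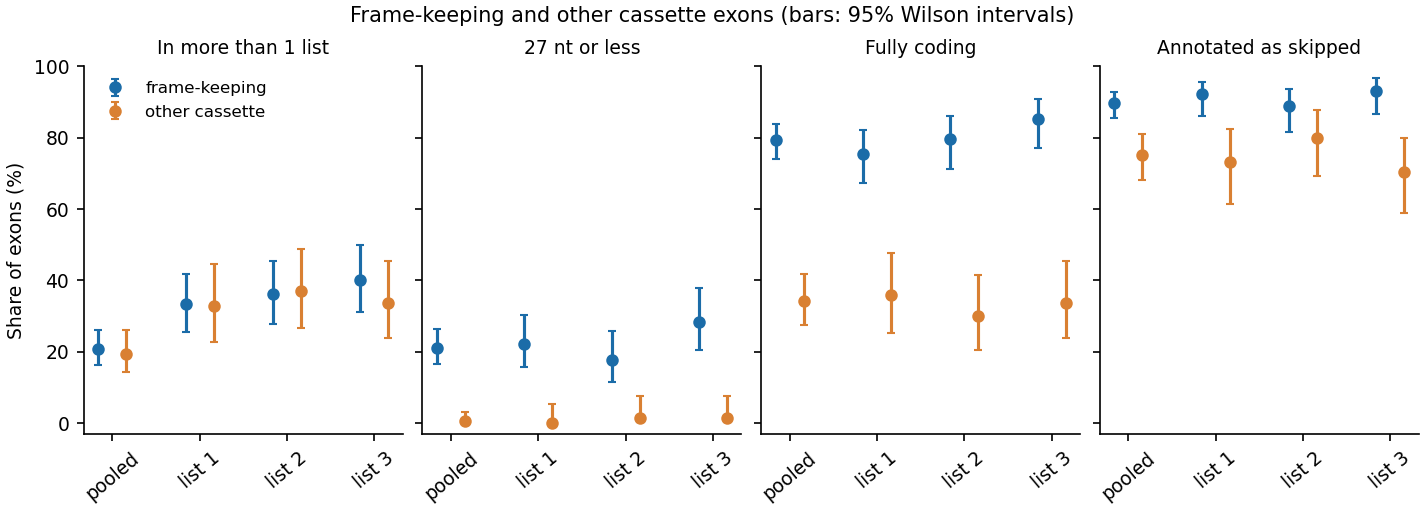
Shares of frame-keeping (left of each pair) and other cassette exons, in percent with 95% Wilson intervals, pooled over the lists and in each list. Fully coding exons made up 79.3% against 34.3% when pooled, and the shares found in more than 1 list, 20.7% and 19.5%, overlapped.

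Not every frame-keeping exon lay between the start and the stop codon. In 11 frame-keeping exons the stop codon of a protein-coding transcript lay inside the exon, as in Scarb1, a 45-nt exon of the tumour suppressor gene Nf2 (exon 16 of 17, lists 1 and 2, with 33 coding bases) and a 24-nt exon of Synj1, a lipid phosphatase of synaptic vesicles (list 3, 18 coding bases). In 6, among them Tmem11, the start codon did. A further 8 were found in no protein-coding transcript but in one annotated for nonsense-mediated decay, the pathway that removes mRNAs with premature stops, against 27 of the 169 other cassette exons (2.96% and 16%). Of those 8, 6 held the stop codon themselves. Camk2d, a calcium-dependent kinase, was one of them, with a 99-nt exon in lists 1 and 3 that was coding for 12 bases up to its stop. Fbxo44, of a ubiquitin ligase (147 nt, lists 2 and 3, 9 coding bases), and Setmar, a methyltransferase gene (153 nt, lists 1 and 3, 21 coding bases), were further ones. Nf2, Synj1, Fbxo44 and Setmar were named after their values were seen.

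The 214 fully coding exons encoded 2 to 200 residues each, with a median of 19 residues or 2.34% of the protein, and 56 of them encoded 10 residues or fewer. None had an in-frame stop codon, which follows from the definition of fully coding. Joining the neighbouring exons made no stop codon at the junction. In 79 (36.9%, 30.7% to 43.6%) the exon began on a codon boundary (phase 0), in 87 (40.7%, 34.3% to 47.3%) 1 base of the codon came from the exon before (phase 1), and in 48 (22.4%, 17.4% to 28.5%) 2 bases did (phase 2). Phase 0 made up 49.6% of 8799 annotated coding exons that are skipped and divisible by 3, and 56.0% of all 67887 internal coding exons divisible by 3. In each list phase 0 had 36.8% to 38.4% of the exons. By size it had 25 of 53 exons of 27 nt or less (47.2%, 34.4% to 60.3%), near the annotated skipped exons. Above 27 nt phase 0 had 54 of 161 (33.5%, 26.7% to 41.1%). Skipping left the codon at the junction with another residue than the inclusion form has on either side in 25 of the 135 exons of phase 1 or 2.

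**Figure D4:**
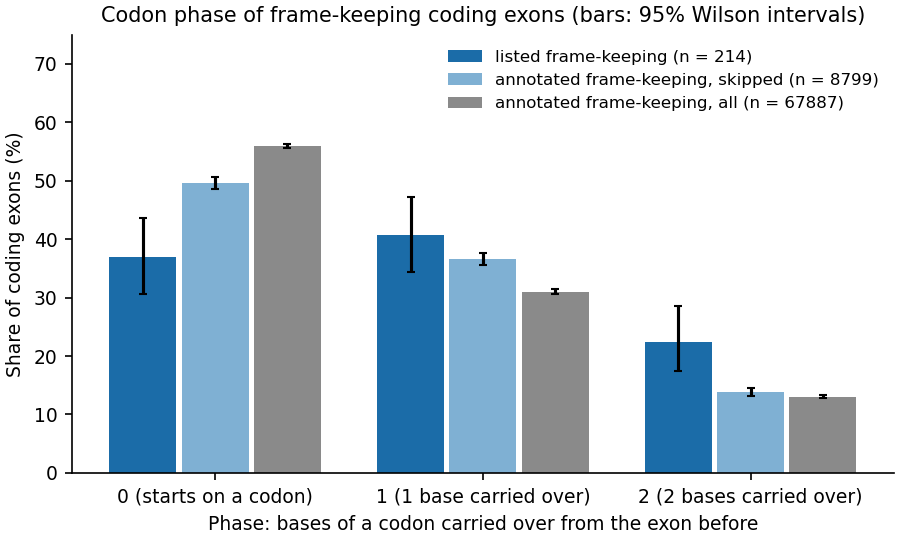
Share of fully coding frame-keeping exons in each phase, in percent with 95% Wilson intervals, for the 214 listed exons (left), 8799 annotated exons that are skipped (middle) and all 67887 annotated internal coding exons divisible by 3 (right). Of the listed exons 36.9% were in phase 0, against 49.6% and 56.0% of the annotated ones.

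Within the coding sequence the median place of the 214 exons was 55.2% of the way from start to stop (quartiles 32.5% and 73.5%), against 46.0% for the annotated exons of the same kind (25.1% and 68.0%). The recurrent short exons ranged from 10.7% in Trappc9 to 95.4% in Madd. The introns around the 214 exons had medians of 1938 nt upstream and 1969.5 nt downstream, against 1345 and 1435 nt for the 58 fully coding exons of other lengths and 1450 and 1383 nt for the annotated frame-keeping ones. Their median GC content of 50.3% was close to the 50% of the other fully coding exons. Proline made up 9.22% of 5476 residues in whole codons, against 6.94% in the fully coding exons of other lengths and 6.86% in the annotated frame-keeping exons, and lay between 8.69% and 9.17% in the single lists. Serine was at 10.7%, against 9.55% and 9.46%. In the exons of 27 nt or less proline was at 5.38% of 316 residues and the acidic residues aspartate and glutamate together at 15.2%, against 10.5% in longer frame-keeping exons. These makeups are descriptions of pooled residues and were not tested.

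The fourth comparison asked whether the exons are known to be skipped. In 242 of the 270 (89.6%, 85.4% to 92.7%) another annotated transcript of the gene joined exons across the listed one, against 127 of 169 other cassette exons (75.1%, 68.1% to 81.1%; odds ratio 2.85, 95% interval 1.64 to 5.02, two-sided Fisher's exact test, adjusted p = 0.000114). The difference passed in list 1 (92.1% against 73.1%, Fisher's exact test, p = 0.000928) and list 3 (93.1% against 70.4%, p = 0.000103) and not in list 2 (88.9% against 80.0%, p = 0.128). Among fully coding exons alone it was larger, with 191 of 214 (89.3%) against 23 of 58 (39.7%; Fisher's exact test, adjusted p = 8.88e-14). The annotation itself leans this way, which the tests here do not take into account. Of annotated internal coding exons of 52 to 99 nt 42.0% are divisible by 3, and of the skipped ones 50.2%. At 100 to 199 nt these shares are 39.2% and 43.3%. The 28 frame-keeping exons with no annotated skipping included the long exons of Plekhh3, Nr2f6 and Phactr4 and the 18-nt exon of Ptprk. The program behind the lists works from known transcripts, and the sources do not give how its exon set was built, so part of this share may be set by that choice and was not tested.

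Several genes had more than 1 frame-keeping exon. They numbered 20, with 31 pairs of exons, of which 3 pairs overlapped (Abi2, Iffo1 and Xlr) and so were forms of one exon. Cadps, which primes secretory vesicles for release, had 4, of 12 nt (list 1), 69 nt (lists 2 and 3), 18 nt (list 2) and 147 nt (list 2), and those of 69 and 18 nt were next to each other in a transcript. Madd had 3, of 60 nt (lists 1 and 3), 63 nt (list 1) and 9 nt (lists 1 and 3). Camk2b, a calcium and calmodulin-dependent kinase, had 3, of 33 nt (list 2), 45 nt (list 1) and 129 nt (list 3), none of them in the same list. Abi2, of the WAVE complex that drives actin branching, had an 18-nt exon in list 3 and a pair of 183 and 84 nt with a common end in list 1.

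In the other genes the exons were mostly apart in the mRNA. Kif21a, a kinesin, had 2 exons of 39 nt each, 27426 nt apart, one in lists 2 and 3 and one in list 1. Ank3, the ankyrin of the axon initial segment, had neighbouring exons of 63 and 54 nt, both in list 1, and Mtmr1, a lipid phosphatase, neighbouring exons of 24 and 51 nt, both in list 3. Ptprk, a receptor tyrosine phosphatase, had exons of 36 nt (lists 1 and 2) and 18 nt (list 2), Rapgef6 had one of 24 nt (list 3) besides that of 15 nt, and Ehbp1, which links endocytosis to actin, had exons of 105 nt (lists 2 and 3) and 108 nt (list 3). Clasp2, a microtubule plus-end protein, had 63 nt (list 2) and 24 nt (list 1), Camsap1, a minus-end protein, 60 and 33 nt (list 2 for both), and Adgrl3, an adhesion receptor of synapses, 27 nt (list 3) and 18 nt (list 1). Exons of single lists also came in pairs in Pikfyve, a lipid kinase of endosomes (33 and 168 nt), Dtna, of the dystrophin complex (93 and 21 nt), Phactr4 (375 and 81 nt), Myef2 (27 and 51 nt) and Xlr, a lymphoid X-linked gene (78 and 126 nt). Of the 28 pairs that did not overlap, 22 occurred together in an annotated transcript and 6 in none, among these Rapgef6, Camsap1 and Pikfyve. Of the 245 genes 5 (Bcas3, Zmym5, Ptprs, Pex2 and Erc1) also had another cassette exon, as did 162 of all 20620 multi-exon protein-coding genes.

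The genes were then counted in 9 groups by function, each a list of gene symbols that does not hold every gene of its kind. Over all 20620 multi-exon protein-coding genes, 1.18% (243) had a frame-keeping exon in any list, and of their 8799 annotated skipped and frame-keeping coding exons 2.17% (191) were listed. Both shares count genes that P19 cells may not transcribe, which the lists do not separate, and the second takes into account that some genes have many such exons. The symbol lists of the groups were written with earlier results of these data known, so a group's share may partly follow from that choice. Genes in any group had 95 of 1727 annotated exons listed (5.50%), and genes in no group 96 of 7072 (1.36%). No test was made on these counts.

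Regulators of small GTPases, the switches of cell shape and membrane traffic, had the highest exon share, with 22 of 214 annotated exons (10.3%) and 21 of 161 genes (13.0%). They held 24 frame-keeping exons, all fully coding, among them those of Elmo2 and Rufy3 in all 3 lists, Madd, Rapgef6 and Asap2 (135 nt, lists 1 and 2). Genes of microtubules and motors followed with 13 of 168 exons (7.74%) and 12 of 87 genes (13.8%), among them Mark2, Nav1, Kif21a, Dctn1, a dynactin subunit (15 nt, list 2), the kinesin gene Kif1b (18 nt, list 2) and Clasp2. In genes of actin, the membrane skeleton and myosins 12 of 211 exons were listed (5.69%; 9 of 90 genes), with Daam1, Svil, a membrane-bound actin protein (96 nt, lists 2 and 3), Abi2, Myo6, a myosin (27 nt, list 2), and exons of 36 nt in Epb41l1 (list 3) and Epb41l3 (list 2), the band 4.1 family that ties spectrin to the membrane.

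Kinases and phosphatases had 13 of 198 exons (6.57%; 12 of 267 genes). Besides Src and Ptprk, frame-keeping exons of these genes included a 33-nt exon of Camk2g, a relative of Camk2b (lists 1 and 3), a 33-nt exon of Map2k4, which activates the stress kinases (lists 2 and 3), the Camk2d exon above and a 12-nt exon of Ptprd (list 1). Genes of vesicle fusion and membrane traffic had 14 of 223 (6.28%; 12 of 293 genes), and frame-keeping exons were, among others, in Vti1a, Exoc1, Cadps, Rab7 and Syt7, a calcium sensor of vesicle fusion (132 nt, lists 1 and 2). Adhesion and cell surface receptors had 11 of 281 (3.91%; 12 of 253 genes), and frame-keeping exons were, among others, in Scarb1, Nrxn2 and, in single lists, the neuronal adhesion gene Nfasc (15 nt), Adgrl3 and Cask, a scaffold of neurexins (18 nt).

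The remaining groups had exon shares nearer to that of all genes. By genes, RNA binding and splicing stood at 4.06%, next to 4.10% for vesicle fusion, chromatin at 2.83% and mitochondria at 0.943%, against 1.18% of all genes. Among RNA-binding and splicing genes 5 of 169 exons were listed (2.96%; 8 of 197 genes), and frame-keeping exons were, among others, in Rbm41, Luc7l2, Tnrc6a of microRNA silencing (33 nt, list 1), Elavl2 (39 nt, list 3) and Srrm2 (63 nt, list 2). Chromatin and transcription regulators had 4 of 219 (1.83%; 6 of 212 genes), namely Camta2, Phf7 (117 nt, lists 2 and 3), Mef2d (21 nt, list 1) and Smarcc2 (93 nt, list 3), beside exons outside this count in Kmt5b and Tcf20. The listed mitochondrial proteins, which do not include Tmem11, had 1 of 44 (2.27%; 2 of 212 genes), the 159-nt exon of the fission receptor gene Mff in lists 1 and 3, beside a 5′UTR exon of the ribosomal protein gene Mrpl30. Slc25a26, a mitochondrial carrier gene, was also outside this symbol list (105 nt, list 1, fully coding, named after its values were seen). The Slc25 entry of the list did not match such symbols, so the shares of this group leave these carriers out. Exons of 27 nt or less were 6 of 24 frame-keeping exons in GTPase regulators, 6 of 15 in microtubules and 6 of 14 in adhesion. They were 5 of 15 in kinases and phosphatases, 4 of 15 in vesicle fusion, 3 of 12 in actin and 2 of 6 in chromatin. RNA binding had 0 of 8 and mitochondria 0 of 2, against 57 of 268 over all multi-exon protein-coding genes.

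**Figure D5:**
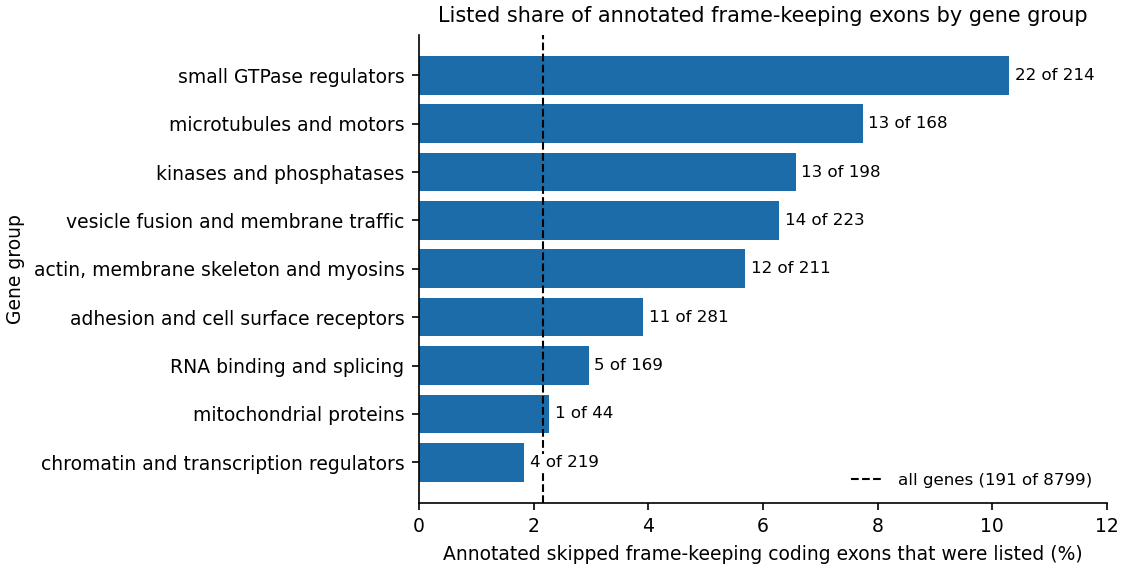
Annotated skipped frame-keeping coding exons that were listed, in percent by gene group, with the numbers beside each bar and the share over all genes (2.17%, 191 of 8799) as a dashed line. Regulators of small GTPases stand at 10.3% and chromatin and transcription regulators at 1.83%. The groups were written with earlier results of these data known.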

How the data were processed

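RNA of P19 cells, 3 SFPQ knockdown and 3 control samples, was sequenced as paired ends. The submitters' notes name cutadapt, Bowtie2, STAR and mm10, and the study's methods name SpliceTrap, which estimates exon inclusion. The library kit is given differently in the labels and the methods. The authors deposited, per the file headers, positions and event types, with no counts, and the threshold and the pairing of control with knockdown samples are not given in the sources used here. Starts count from 0 and are printed counted from 1. The lists had 275, 269 and 262 lines, of which 4, 4 and 5 repeated others. In lists 1 and 2, 1 row each was unreadable (the second a cassette exon) and left out.

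Exons were matched to GENCODE M21 (GRCm38). Fully coding means coding at all bases in a protein-coding transcript with that exon. Exons are numbered in the longest transcript, by exon count, that holds them. Shares were compared with two-sided Fisher's exact tests over exons, which are not replicates of the condition and share genes, and intervals cover counting error only. Of 6 planned tests, the 2 on intron motifs were not run, since the intron sequence was not used here, and adjustment was over 4. The test on length is not printed, because length defines the groups. Fisher's exact test and the rule on the frame were tried on simulated data, and the matching to the annotation was not. Software was Python 3.11.15 with scipy 1.17.1 for tests, numpy 2.4.6 for quartiles and matplotlib 3.10.9 for plots. Alternatives left out a list, kept 1 exon per gene, exactly annotated or fully coding exons, or changed definitions.

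Named were exons in all lists, those of 27 nt or less in more than 1 list, genes with 2 or more, the 5 longest and 5 shortest, any fully coding exon with an in-frame stop, and up to 6 members a group. A gene that this rule names is not reported here. Members, the symbol lists of the gene groups and tests were chosen with earlier results of these data known.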

Additional observations from a re-analysis of the deposited data

How the results depend on the processing

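Values are differences in percentage points, frame-keeping minus other cassette exons. Fully coding exons (44.9 points) and annotated skipping (14.5) kept their direction and stayed under an adjusted p of 0.05 in every alternative run. Without 1 list each, they lay at 43.6 to 48.7 and 11.6 to 18.7 points. The share of exons of 27 nt or less, given with no test, differed by 20.5 points, and by 19.3 to 22.3 points without 1 list each. The difference in recurrence (1.21 points) passed in none, and its direction turned without list 1 (-0.806 points) and without list 3 (-0.333 points), within a range of -0.806 to 3.03 points. Among fully coding exons it was 5.98 points (Fisher's exact test, adjusted p = 0.361). Windows for the intron motifs were not run. No paired analysis was possible because the lists hold no values per sample. The lack of read counts limits every comparison to whether an exon was listed.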
